A study of Mus musculus with 4 samples.

Results

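The ATF4 pathway and the unfolded protein response were examined in HT-22 cells with and without PGC-1α overexpression. The genes were listed by name from knowledge of the pathway, with earlier results of these data known. In all, 41 genes were listed, and 40 of them had values among the 11502 gene symbols of the transcript table. The list holds 19 genes of the ATF4 arm, 4 sensor genes and 18 genes of the chaperone arm. The ATF4 arm consists of ATF4, its partner factors, stress regulators and amino acid genes. The sensor genes are Eif2ak3, Ern1, Atf6 and Xbp1, and the chaperone arm holds the folding helpers and degradation factors of the endoplasmic reticulum (ER). Atf3, a stress-induced factor of the ATF4 arm, had no value here, so 18 genes of that arm were described. All 40 measured members reached a mean of 1 FPKM over the 4 libraries, the minimum for a comparison.

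RNA-Seq was available for 4 libraries, 1 for each condition. HT-22 is an immortalized mouse hippocampal line. Per the study's methods all cells received a lentivirus and puromycin selection, with the negative control virus in Ctrl and Ctrl+OGD, and the PGC-1α-overexpressing virus in PGC-1α and PGC-1α+OGD. The sample labels call the genotype of the control libraries wild type. Oxygen and glucose deprivation (OGD) was given for 2 h in medium lacking serum and glucose, in a chamber of nitrogen with carbon dioxide, after which the cells recovered for 24 h in normal medium before collection. Ctrl and PGC-1α cells were left without OGD. With 1 library per condition no difference has a replicate check, no p value was computed, and the effect of a condition cannot be told apart from variation between cultures. The comparison of PGC-1α with Ctrl shares no library with that of PGC-1α+OGD with Ctrl+OGD, whereas the 2 comparisons of OGD with no OGD reuse the same 4 libraries.

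The table does not name its unit, which was inferred from the values to be FPKM, fragment numbers corrected for transcript length and library size. On that reading, levels of different genes can be set side by side. A gene's level is the sum over its deposited transcripts. Changes are differences of log2(FPKM + 1), a scale that shrinks the change of weakly expressed genes. Genes that changed by 1.5-fold or more were counted as higher or lower. The column totals lay between 331892 and 353381 FPKM, and read depth is unknown. Ppargc1a, which encodes PGC-1α, stood at 0.900 and 35.1 FPKM in control and overexpressing cells without OGD, and 0.103 and 8.41 FPKM with it. It was high in both overexpressing libraries, and lower in the one collected after OGD. Of 14 neuron markers, 12 had no row here, among them Rbfox3, Map2, Tubb3 and Snap25. The other 2, Eno2 and Camk2a, summed to 5.36 to 8.52 FPKM in a library. All 4 fibroblast markers had values, with 434.7 to 528.3 FPKM summed in a library. Among these Col3a1 was low, at 2.94 to 5.39 FPKM. The labelled neuronal identity therefore had little marker support in this table.

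When amino acids, oxygen, heme or ER folding capacity run short, stress kinases such as PERK phosphorylate the translation factor eIF2, bulk protein synthesis slows and ATF4 mRNA is translated more. ATF4 then switches on amino acid synthesis and import, and under lasting stress also the factor CHOP. In the ER, the sensors IRE1 and ATF6 act beside PERK: IRE1 splices Xbp1 mRNA, and ATF6 is cut by proteases in the Golgi. Spliced XBP1 and cleaved ATF6 raise chaperones and the machinery of ER-associated degradation (ERAD). Much of this control is exerted on translation, splicing and protein cleavage, which mRNA levels do not show.

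Comparing PGC-1α with Ctrl, 6 of 40 members (15.0%) were lower by at least 1.5-fold, against 5.63% of the 10604 genes compared. Only Psat1 was higher, which is 2.50% of the members against 4.91% of all genes. The 6 lower members were Ppp1r15a, Ddit3, Chac1, Trib3, Ern1 and Sesn2, and 5 of them belong to the ATF4 arm. After OGD, no member passed 1.5-fold between PGC-1α+OGD and Ctrl+OGD in either direction, where 3.08% of all genes were higher and 3.82% were lower. The members' log2 changes there ran from -0.32 to 0.25.

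Comparing Ctrl+OGD with Ctrl, 6 of 40 members (15.0%) were higher, against 6.2% of all genes, and 2 (5.00%) were lower, against 7.71%. The higher members were Shmt2, Psph, Manf, Sdf2l1, Herpud1 and Hspa5, and the lower ones were Ern1 and Ddit3. The split over all genes in this comparison depends on scaling, with 657 genes higher and 818 lower as deposited and 498 higher and 1099 lower after equal totals. After equal totals 4 members were higher, since Hspa5 and Herpud1 then fell short of 1.5-fold at log2 changes of 0.50 and 0.54, and the same 2 were lower. Comparing PGC-1α+OGD with PGC-1α, 4 of 40 members (10.0%) were higher, namely Chac1, Ppp1r15a, Ddit3 and Atf4, against 3.82% of all genes. No member was lower, against 5.22% of all genes.

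**Figure D1:**
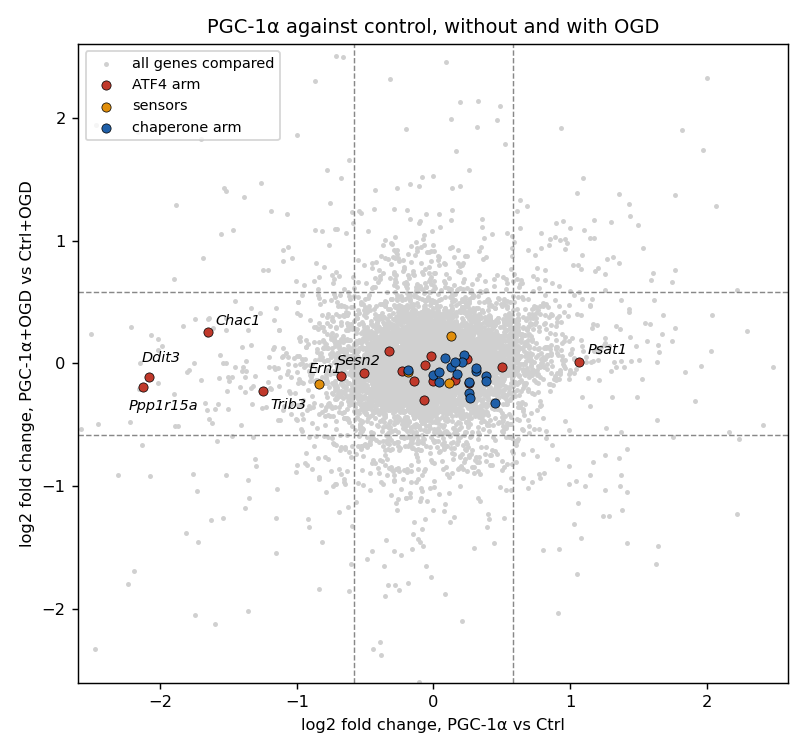
Log2 fold change of PGC-1α vs Ctrl (horizontal) against that of overexpressing vs control cells after OGD (vertical), each point a gene and each change from 1 pair of libraries. Grey points are all genes compared, of which 22 lie outside the axes, coloured points are the members by arm, and dashed lines mark 1.5-fold. The 6 lower members and Psat1 spread along the horizontal axis, and all 40 members lie within the dashed lines on the vertical axis.

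ATF4 target genes often carry a C/EBP-ATF response element (CARE), an 8-base site with the letters TGATGNAA. This site was searched on both strands in the 250 bases before the RefSeq start of each gene, in the table of build GRCm38.p6, where 37 of the 41 members had an entry. Slc7a5, Atf6, Manf and Hyou1 had none. A CARE was found in 4 of 18 ATF4-arm genes with an entry (Asns, Atf3, Chac1 and Pycr1), in 1 of 16 chaperone-arm genes (Herpud1), and in 3.45% of all 32851 promoters of the table, or 2.06% of the 10733 promoters of genes compared here. The cyclic AMP response element TGACGTCA was found in Ppp1r15a alone among the members, in 1.55% of all promoters and in 2.69% of those of genes compared. The matches are shown 5′ to 3′ on the strand that reads the site as spelled, with the site in capitals, because Chac1 and Ppp1r15a were among the members that differed most and Asns is the textbook ATF4 target.
Chac1 at chr2:119351044-119351061, minus strand: aggagTGATGCAAcggca
Asns at chr6:7693220-7693237, minus strand: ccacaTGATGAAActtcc
Pycr1 at chr11:120643839-120643856, minus strand: gtgtaTGATGCAAtgcac
Ppp1r15a at chr7:45526269-45526285, minus strand: tccggTGACGTCAgcac
The sites of Chac1, Pycr1 and Ppp1r15a overlap no annotated exon, and that of Asns lies in an exon of Asns in GENCODE M21. The CARE began 193 bases before the start of Chac1 and 23 bases before that of Asns, and the site of Ppp1r15a began 12 bases before its start. Of the 4 members with a CARE and values, Chac1 alone passed 1.5-fold in PGC-1α vs Ctrl, with a log2 change of -1.65 against 0.25 for Asns, 0.04 for Herpud1 and -0.07 for Pycr1. A match describes the letters only, and whether a factor bound there was not measured. Sequence beyond the 250 bases was not searched, so a gene without a match here may still hold a site. Annotated exons covered 181 of the 250 bases of Ddit3 and all 250 of Psph.

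Atf4 itself, on chromosome 15 (80255184 to 80257541, plus strand), was among the more abundant members. Its level was 314 FPKM in Ctrl, with 221 FPKM under overexpression, and 367 and 348 FPKM in the matching OGD libraries. The PGC-1α library was lowest, and the other 3 lay close together. The log2 change was -0.51 between PGC-1α and Ctrl, short of 1.5-fold, and 0.65 for OGD vs no OGD in overexpressing cells, past it. Atf4 had a single transcript in the table, so no shift between transcripts enters these values.

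Ddit3 encodes CHOP, the factor tied to cell death under lasting ER stress, and lies on chromosome 10 (127290774 to 127296288, plus strand). Its level was 393 FPKM in Ctrl cells, 91.8 FPKM in PGC-1α cells, and 228 and 212 FPKM in the same cells after OGD, a range of 4.28-fold. Ctrl was highest, PGC-1α lowest, and the 2 OGD libraries lay between them and close to each other. The log2 change was -2.09 between PGC-1α and Ctrl, and -0.11 for overexpressing vs control cells after OGD. The OGD comparisons went in opposite directions, with -0.78 in control cells and 1.20 in overexpressing cells. Among the 6088 genes averaging 10 FPKM or more, Ddit3 had the 6th lowest change in PGC-1α vs Ctrl. Ddit3 overlaps Mars and Gm4189 on the other strand, and the strand setting of the counting is not given in the sources used here.

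Ppp1r15a encodes GADD34, which directs the phosphatase that reverses eIF2 phosphorylation, and lies on chromosome 7 (45522916 to 45526268, minus strand). Its level was 63.5 and 13.8 FPKM in control and overexpressing cells without OGD, and 47.6 and 41.5 FPKM with it. The PGC-1α library stood apart from the other 3. Its log2 change of -2.13 was the 5th lowest of the 6088 genes in PGC-1α vs Ctrl, and its change of 1.52 in OGD vs no OGD in overexpressing cells was the 9th highest. The constitutive partner gene Ppp1r15b, which has the same task without stress, ranged from 23.1 to 28.2 FPKM.

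Chac1 encodes a glutathione-degrading enzyme and is a downstream target of ATF4. It was a low gene, at 8.57 FPKM in Ctrl, with 2.06 FPKM under overexpression, and 9.73 and 11.8 FPKM in the matching OGD libraries. Again only the PGC-1α library was low. The log2 change was -1.65 between PGC-1α and Ctrl and 2.07 for OGD vs no OGD in overexpressing cells, and 9 of the 10604 genes compared had a higher change in the latter.

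Trib3 encodes a pseudokinase that ATF4 and CHOP induce and that restrains ATF4 in turn. Its level was 145 FPKM in Ctrl cells, 60.8 FPKM in PGC-1α cells, and 106 and 90.3 FPKM in the same cells after OGD, again with Ctrl highest and PGC-1α lowest. The log2 change was -1.25 between PGC-1α and Ctrl, and 0.56 for OGD vs no OGD in overexpressing cells, just short of 1.5-fold. Sesn2, a leucine sensor that restrains mTORC1, had the same order at lower levels, with 23.8 and 14.5 FPKM in control and overexpressing cells without OGD, and 21.0 and 19.4 FPKM with it. Its log2 change was -0.68 for PGC-1α vs Ctrl.

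The bZIP factors Atf5 and Cebpb stayed within 1.5-fold in every comparison, unlike Ddit3. Atf5, a relative of ATF4 that is likewise controlled in translation, was at 180 FPKM in Ctrl, with 163 FPKM under overexpression, and 183 and 166 FPKM in the matching OGD libraries. Cebpb, which pairs with ATF4 on CARE sites, was at 173 FPKM in Ctrl cells, 172 FPKM in PGC-1α cells, and 134 and 122 FPKM in the same cells after OGD. Atf5 was nearly level, and Cebpb was lower in both OGD libraries, by -0.36 and -0.50 on the log2 scale.

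Over the 8 measured stress regulators, which are Atf4, Atf5, Ddit3, Cebpb, Trib3, Chac1, Sesn2 and Ppp1r15a, the median log2 change was -0.96 in PGC-1α vs Ctrl, and none was above 0. This set was split from the arm with earlier results of these data known, and the whole arm had a median of -0.10. Over all genes the median was -0.03, and 45.8% were above 0. The same 8 genes had medians of -0.12 in overexpressing vs control cells after OGD, -0.27 in Ctrl+OGD vs Ctrl and 0.61 in OGD vs no OGD in overexpressing cells. Summed over the whole ATF4 arm, control cells held 1878 FPKM and overexpressing cells 1392 FPKM, against 1859 and 1755 FPKM after OGD. PGC-1α was the lowest library for 12 of the 18 ATF4-arm genes and for 24.4% of all genes compared. Ppargc1a itself was lower in PGC-1α+OGD than in PGC-1α, by 1.94 on the log2 scale, and its part in the smaller differences after OGD was not tested. In bulk RNA, a change per cell and a change in the share of cells that respond cannot be told apart.

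**Figure D2:**
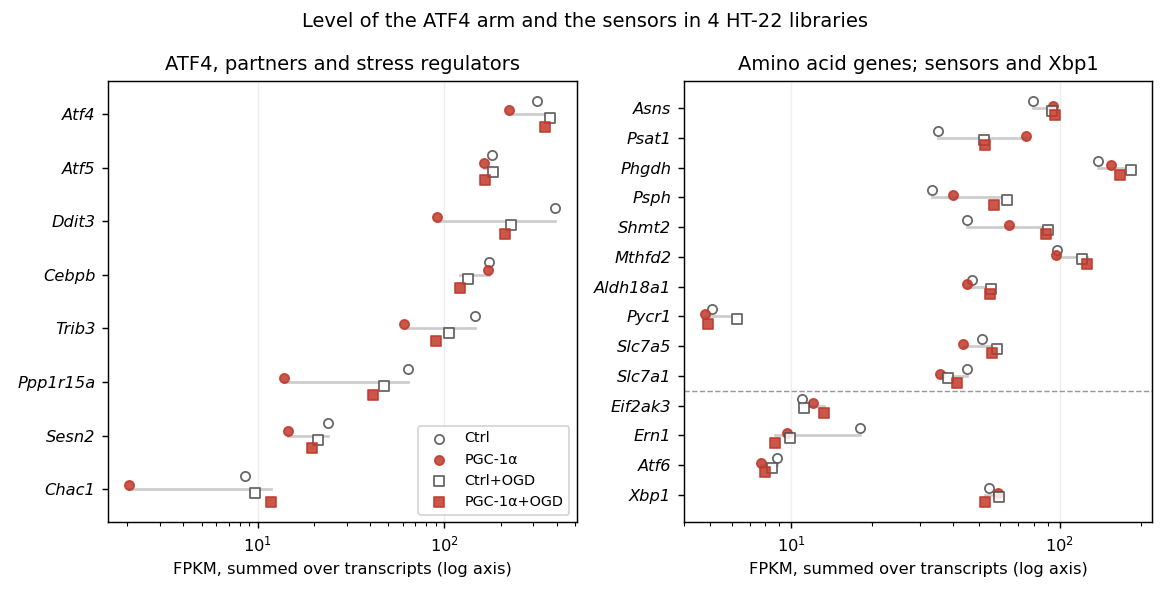
Level of the 18 measured ATF4-arm genes and the 4 sensor genes in FPKM on a log axis, with 1 marker for each library and a grey line from the lowest to the highest. Circles are libraries without OGD, squares with OGD, open symbols control and filled symbols PGC-1α overexpression. In Ddit3, Trib3, Ppp1r15a, Sesn2 and Chac1 the filled circle lies left of the other 3 markers, and Ern1 has the open circle alone on the right, at 17.99 FPKM.

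Of the 10 amino acid genes of the arm, 1 was higher and none lower in PGC-1α vs Ctrl, and 5 were above 0. Psat1 encodes the enzyme after phosphoglycerate dehydrogenase in serine synthesis and was that higher gene. Its level was 35.3 and 74.9 FPKM in control and overexpressing cells without OGD, and 52.2 and 52.8 FPKM with it. The log2 change was 1.06 between PGC-1α and Ctrl, and the 2 OGD libraries were nearly equal. Psat1 therefore had its lowest level where Ddit3 and Ppp1r15a had their highest, and its highest where they had their lowest.

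Psph, which completes serine synthesis, stood at 33.3 FPKM in Ctrl, with 40.1 FPKM under overexpression, and 63.4 and 56.7 FPKM in the matching OGD libraries. Shmt2, the mitochondrial enzyme that passes a carbon from serine to folate, stood at 45.2 FPKM in Ctrl cells, 64.5 FPKM in PGC-1α cells, and 90.2 and 88.7 FPKM in the same cells after OGD. Both genes were lowest in Ctrl and highest after OGD, and their log2 changes in Ctrl+OGD vs Ctrl were 0.91 and 0.98. In OGD vs no OGD in overexpressing cells the changes of 0.49 and 0.45 stayed within 1.5-fold. Psph overlaps Cct6a and Shmt2 overlaps Ndufa4l2 on the other strand.

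Phgdh, the entry enzyme of serine synthesis, was the most abundant gene of this group, at 138 and 155 FPKM in control and overexpressing cells without OGD, and 184 and 168 FPKM with it. Mthfd2, the next mitochondrial folate enzyme, was at 97.3 FPKM in Ctrl, with 96.3 FPKM under overexpression, and 121 and 126 FPKM in the matching OGD libraries. Neither passed 1.5-fold. All 5 serine and one-carbon enzymes were above 0 in Ctrl+OGD vs Ctrl, against 48.0% of all genes, with a median log2 change of 0.55. Asparagine synthetase (Asns) ranged from 79.4 FPKM in Ctrl to 95.8 FPKM in PGC-1α+OGD, the proline enzymes Aldh18a1 and Pycr1 from 45.1 to 55.5 FPKM and from 4.78 to 6.27 FPKM, and the carriers Slc7a5 and Slc7a1 from 43.6 to 58.2 FPKM and from 35.9 to 45.2 FPKM. None of these 5 genes passed 1.5-fold in any comparison. Over the 10 amino acid genes the median log2 change was 0.07 in PGC-1α vs Ctrl, -0.02 in overexpressing vs control cells after OGD, 0.29 in Ctrl+OGD vs Ctrl and 0.24 in OGD vs no OGD in overexpressing cells. In the last of these 9 of the 10 were above 0, as were 7 of the 8 stress regulators, against 50.1% of all genes. A difference between the amino acid genes and the stress regulators was not tested.

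A further list of 22 genes that ATF4 is known to induce was set out with earlier results of these data known. Of these genes, 21 had values. Comparing PGC-1α with Ctrl, 3 were lower (Gdf15, Fgf21 and Nupr1), 1 was higher (Got1) and 17 stayed within 1.5-fold. The lower genes were 14.3% of the list against 5.63% of all genes, and the higher one was 4.76% against 4.91%. The genes above 0 were Got1 and Pck2, 9.52% of the list against 45.8% of all genes, and the median log2 change was -0.37. Gdf15, a secreted stress hormone, stood at 18.5 FPKM in Ctrl cells, 7.48 FPKM in PGC-1α cells, and 18.1 and 15.6 FPKM in the same cells after OGD, so only the PGC-1α library was low. Got1, an aspartate transaminase, stood at 24.9, 48.0, 27.5 and 38.4 FPKM in the same order and was higher in both overexpressing libraries.

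After OGD, 1 of the 21 genes differed between PGC-1α+OGD and Ctrl+OGD, Nupr1, a small stress-induced chromatin protein, with a log2 change of -0.88. Nupr1 was at 160 and 103 FPKM in control and overexpressing cells without OGD, and 152 and 82.4 FPKM with it. It was low in both overexpressing libraries, unlike the stress regulators above. None of the 21 passed 1.5-fold in Ctrl+OGD vs Ctrl, though Vldlr fell just short of it at -0.58. In OGD vs no OGD in overexpressing cells 3 were higher (Gdf15 at 0.97, Ddit4 at 0.83 and Cth at 0.60). They are 14.3% of the list against 3.82% of all genes. The median there was 0.23, and 17 of 21 were above 0, against 50.1% of all genes.

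Of the sensor genes, 3 were low in level and Xbp1 was higher. Ern1, which encodes IRE1α on chromosome 11 (106394650 to 106487852, minus strand), was at 17.99 FPKM in Ctrl, with 9.64 FPKM under overexpression, and 9.87 and 8.68 FPKM in the matching OGD libraries. Ctrl alone was high, which gave log2 changes of -0.84 for PGC-1α vs Ctrl and -0.80 for Ctrl+OGD vs Ctrl. Both changes rest on the same Ctrl library.

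Eif2ak3, the gene of PERK, was at 10.9 FPKM in Ctrl cells, 12.03 FPKM in PGC-1α cells, and 11.2 and 13.2 FPKM in the same cells after OGD. Atf6 was at 8.87 and 7.69 FPKM in control and overexpressing cells without OGD, and 8.47 and 8.01 FPKM with it. Both stayed within 1.5-fold in all 4 comparisons.

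Xbp1 encodes the factor that IRE1 activates by splicing, and it lies on chromosome 11 (5520659 to 5525893, plus strand). Its level was 54.4 FPKM in Ctrl, with 58.8 FPKM under overexpression, and 59.2 and 52.8 FPKM in the matching OGD libraries. The 4 libraries were close, with log2 changes from -0.16 to 0.12. Of its 3 transcripts, Xbp1-201 held most of this, at 46.7 to 54.2 FPKM. Xbp1-203 was at 1.07 FPKM in Ctrl cells, 1.83 FPKM in PGC-1α cells, and 4.79 and 4.61 FPKM in the same cells after OGD, higher in both OGD libraries, while Xbp1-204 ranged from 1.46 to 3.47 FPKM. The shortest annotated introns of these transcripts were 300, 771 and 300 bases, far longer than the stretch IRE1 removes, so none of the 3 represents the spliced message and the splicing could not be read from the table.

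Genes that work with the sensors were looked at by further lists. Of 14 genes of the eIF2 kinases, eIF2 and eIF2B, 13 or 14 stayed within 1.5-fold in each comparison, and the exception was Eif2b3, a subunit of the eIF2B exchange factor, with 0.67 in Ctrl+OGD vs Ctrl, 7.14% of the list against 6.2% of all genes. Of 11 sensor partners, 1 was higher and 1 lower in PGC-1α vs Ctrl (Mbtps1 and Crebrf), 1 was lower in overexpressing vs control cells after OGD (Mbtps1), 1 was higher and 2 lower in Ctrl+OGD vs Ctrl (Mbtps1, Crebrf and Wfs1), and 1 was lower in OGD vs no OGD in overexpressing cells (Mbtps1). In a list of this size 1 gene is 9.09%, against 3.08% to 7.71% of all genes called in one direction, and the 2 lower ones in Ctrl+OGD vs Ctrl are 18.2% against 7.71%. Mbtps1 encodes the site-1 protease that cuts ATF6, and stood at 8.87 and 17.7 FPKM in control and overexpressing cells without OGD, and 21.9 and 7.00 FPKM with it. It was high in 2 libraries that share neither virus nor treatment and low in the other 2. Its 2 transcripts had the same order of libraries.

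The chaperone arm was the most abundant part, its summed level being 3937 FPKM in Ctrl, 4568 FPKM under overexpression, and 4892 and 4717 FPKM in the matching OGD libraries. Ctrl was lowest and the other 3 lay closer together. Ctrl was the lowest library for 16 of its 18 genes, and Ctrl+OGD the highest for 13. Over all genes compared, Ctrl was lowest for 28.2% and Ctrl+OGD highest for 26.1%.

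Chaperone genes are known for the ER stress response element (ERSE), which reads CCAAT, 9 bases of any kind, then CCACG, and which takes ATF6 and XBP1 beside the factor NF-Y. In the 250 bases before the start, 8 of 16 chaperone-arm genes with an entry held it on either strand, with no mismatch allowed, against 0.113% of all promoters in the table. None of the 18 ATF4-arm genes and none of the 3 sensor genes with an entry held it. The short form ERSE-II (ATTGG, 1 base of any kind, then CCACG) was found in Herpud1, in 0.0304% of all promoters and in 0.0559% of those of genes compared, and the UPR element TGACGTGG in no member and 0.563% of all promoters. ERSE and ERSE-II end in the same 5 letters, and no match of one overlapped a match of the other. The ERSE matches are shown to let the spacing be compared, with the 2 ends of the element in capitals and 5 bases on each side, read 5′ to 3′ on the strand that spells the element.
Hspa5 at chr2:34772020-34772048, plus strand: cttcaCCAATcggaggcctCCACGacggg
Hsp90b1, nearer site, at chr10:86705528-86705556, plus strand: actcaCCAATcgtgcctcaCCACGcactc
Hsp90b1, farther site, at chr10:86705633-86705661, minus strand: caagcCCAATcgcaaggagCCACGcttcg
Calr at chr8:84847070-84847098, plus strand: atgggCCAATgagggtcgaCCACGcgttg
Canx at chr11:50325795-50325823, minus strand: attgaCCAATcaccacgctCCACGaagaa
Pdia6 at chr12:17266486-17266514, plus strand: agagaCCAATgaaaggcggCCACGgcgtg
Dnajc3 at chr14:118937822-118937850, plus strand: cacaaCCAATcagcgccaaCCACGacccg
Creld2 at chr15:88819515-88819543, minus strand: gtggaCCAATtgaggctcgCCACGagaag
Syvn1 at chr19:6046527-6046555, plus strand: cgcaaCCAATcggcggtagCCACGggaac
Only the site of Hspa5 overlaps an annotated exon, one of Hspa5 itself. Herpud1 is the one member with both a CARE and an ERSE-II, and its 250 bases, which overlap no annotated exon, are shown whole at chr8:94386179-94386428 on the plus strand, with the CARE (here in its reverse complement) first and the ERSE-II second in capitals.
Herpud1: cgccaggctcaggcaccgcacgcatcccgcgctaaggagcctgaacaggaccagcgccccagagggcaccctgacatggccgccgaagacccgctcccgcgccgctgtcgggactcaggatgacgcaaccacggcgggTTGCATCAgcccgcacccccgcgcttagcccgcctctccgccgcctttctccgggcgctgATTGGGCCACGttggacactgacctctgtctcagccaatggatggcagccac
The 8 genes with an ERSE were set beside the 8 with an entry but no match. The latter include Herpud1 with its ERSE-II, and Pdia3 and Dnajb9, whose 250 bases lie wholly in annotated exons. The 2 groups therefore do not cleanly separate genes with and without an ER stress element. The median log2 change in Ctrl+OGD vs Ctrl was 0.32 with an ERSE (0.01 to 0.59) and 0.36 without (0.04 to 0.71), and in PGC-1α vs Ctrl it was 0.24 (-0.00077 to 0.39) and 0.14 (-0.19 to 0.39). The ranges overlapped over most of their length in both comparisons. Each group had a median of -0.08 in overexpressing vs control cells after OGD. In OGD vs no OGD in overexpressing cells the medians were 0.01 with an ERSE (-0.20 to 0.19) and 0.14 without (-0.11 to 0.44).

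Hspa5 encodes BiP, the main Hsp70 of the ER, which holds the sensors inactive, and lies on chromosome 2 (34771970 to 34777547, plus strand). Its level was 250.2 FPKM in Ctrl cells, 300.0 FPKM in PGC-1α cells, and 377 and 340.0 FPKM in the same cells after OGD. Ctrl was lowest and both OGD libraries were highest. The log2 change of 0.59 in Ctrl+OGD vs Ctrl was just past 1.5-fold, and the other comparisons stayed within it, from -0.15 to 0.26.

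Sdf2l1, a partner of the ER J-proteins, stood at 64.1 and 77.1 FPKM in control and overexpressing cells without OGD, and 105 and 88.7 FPKM with it. Manf, a secreted ER stress protein with trophic effects on neurons, stood at 158 FPKM in Ctrl, with 216 FPKM under overexpression, and 259 and 207 FPKM in the matching OGD libraries. Both had Ctrl lowest and Ctrl+OGD highest, and both changed by 0.71 on the log2 scale in Ctrl+OGD vs Ctrl. Manf shares its strand with the overlapping gene Rbm15b.

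Herpud1, which links ERAD components at the ER membrane, stood at 29.5 FPKM in Ctrl cells, 30.3 FPKM in PGC-1α cells, and 46.1 and 41.4 FPKM in the same cells after OGD. Here the split followed OGD alone, with both OGD libraries above both others. The log2 change was 0.63 in Ctrl+OGD vs Ctrl and 0.44 in OGD vs no OGD in overexpressing cells. In overexpressing cells it therefore stayed within 1.5-fold, and the difference between the 2 changes was not tested.

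The 5 most abundant chaperone genes were Hsp90b1, Calr, Pdia3, Pdia6 and Pdia4. Hsp90b1, which encodes GRP94, was at 999 and 1165 FPKM in control and overexpressing cells without OGD, and 1126 and 1177 FPKM with it. Calr, the lectin chaperone calreticulin, was at 691 FPKM in Ctrl, with 856 FPKM under overexpression, and 898 and 859 FPKM in the matching OGD libraries. In both genes Ctrl was lowest, and none of the comparisons passed 1.5-fold.

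The disulfide isomerases had both OGD libraries above both others. Pdia3 was at 422 FPKM in Ctrl cells, 462 FPKM in PGC-1α cells, and 496 and 486 FPKM in the same cells after OGD. Pdia6 was at 328 and 327 FPKM in control and overexpressing cells without OGD, and 401 and 374 FPKM with it. Pdia4 was at 315 FPKM in Ctrl, with 354 FPKM under overexpression, and 391 and 368 FPKM in the matching OGD libraries. All 3 were highest in Ctrl+OGD, and none passed 1.5-fold.

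The other 9 members of the arm stayed within 1.5-fold throughout. They are the lectin chaperone Canx (339 to 359 FPKM), the J-proteins Dnajb11 (102 to 148 FPKM), Dnajb9 (25.1 to 31.2 FPKM) and Dnajc3 (22.6 to 28.4 FPKM), the folding factor Creld2 (76.9 to 112 FPKM), the exchange factor Hyou1 (61.0 to 75.9 FPKM), and the ERAD genes Edem1 (11.7 to 15.9 FPKM), Sel1l (30.7 to 34.3 FPKM) and Syvn1 (9.87 to 12.8 FPKM). Dnajb11, Creld2, Edem1 and Syvn1 were highest in Ctrl+OGD and lowest in Ctrl.

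Over the 18 genes the median log2 change was 0.33 in Ctrl+OGD vs Ctrl, with 18 above 0, and 0.22 in PGC-1α vs Ctrl, with 16 above 0. All genes had medians of -0.02 and -0.03 there, with 48.0% and 45.8% above 0. In overexpressing vs control cells after OGD the median was -0.08, with 4 above 0, and in OGD vs no OGD in overexpressing cells it was 0.04, with 13 above 0. Over all genes 47.1% and 50.1% were above 0 there. The ATF4 arm had medians of 0.20, -0.10, -0.09 and 0.37 in the same order of comparisons. By summed level Ctrl stood apart for the chaperone arm, and it was lowest for 16 of the 18 genes. Herpud1, Pdia6 and Edem1 split by OGD, with PGC-1α near Ctrl. PGC-1α was the lowest library for each measured stress regulator of the ATF4 arm except Cebpb, though Atf5 was nearly level. Whether the arms differed beyond the variation between cultures could not be tested with 1 library per condition.

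**Figure D3:**
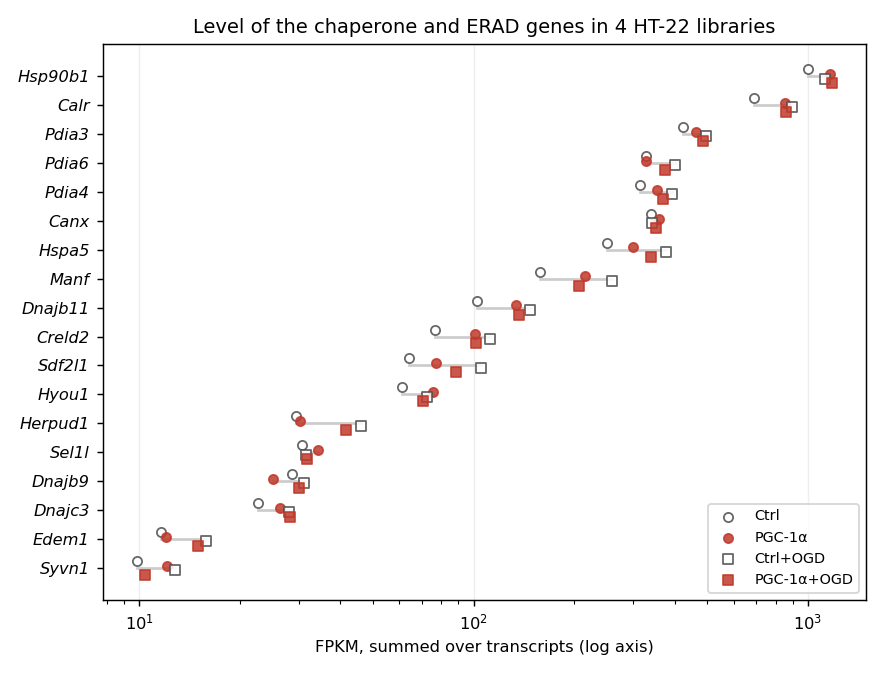
Level of the 18 chaperone-arm genes in FPKM on a log axis, ordered by mean, with the same symbols as for the ATF4 arm (circles without OGD, squares with OGD, filled for PGC-1α overexpression). The open circle of Ctrl is the leftmost marker in 16 of 18 genes, and the spread within a gene is small beside that of Ddit3 or Ppp1r15a.

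Further genes of ER folding and transport lay near all genes. Of 32 such genes, 1 was higher and none lower in PGC-1α vs Ctrl (Sec11c), 1 was higher in overexpressing vs control cells after OGD (Uggt1), 1 was higher and 1 lower in Ctrl+OGD vs Ctrl (Sec11c and Fkbp14), and 1 was higher and 1 lower in OGD vs no OGD in overexpressing cells (Txndc5 and Fkbp14). In Ctrl+OGD vs Ctrl their median log2 change was 0.03, and 16 of 32 were above 0, against 48.0% of all genes. A single gene is 3.12% of this list, which is at or below the share of all genes called in each direction except the 3.08% higher in overexpressing vs control cells after OGD. Sec11c, a signal peptidase subunit, stood at 28.8 and 57.2 FPKM in control and overexpressing cells without OGD, and 53.3 and 61.9 FPKM with it. It was low in Ctrl alone, as was the summed level of the chaperone arm.

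Of 22 further ERAD genes, 21 had values. Comparing PGC-1α with Ctrl, Vcp was higher, and Rnf185 and Ube2g2 were lower. Vcp was also higher in Ctrl+OGD vs Ctrl, and no gene of this list passed 1.5-fold in the other 2 comparisons. A single gene is 4.76% of this list, where 4.91% of all genes were higher in PGC-1α vs Ctrl and 6.2% in Ctrl+OGD vs Ctrl. The 2 lower ones are 9.52% against 5.63% of all genes. Vcp encodes the p97 ATPase that pulls proteins out of the ER membrane, and it stood at 106 FPKM in Ctrl cells, 162 FPKM in PGC-1α cells, and 168 and 158 FPKM in the same cells after OGD. The list's median log2 change was -0.03 in Ctrl+OGD vs Ctrl and -0.05 in PGC-1α vs Ctrl, near that of all genes.

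**Figure D4:**
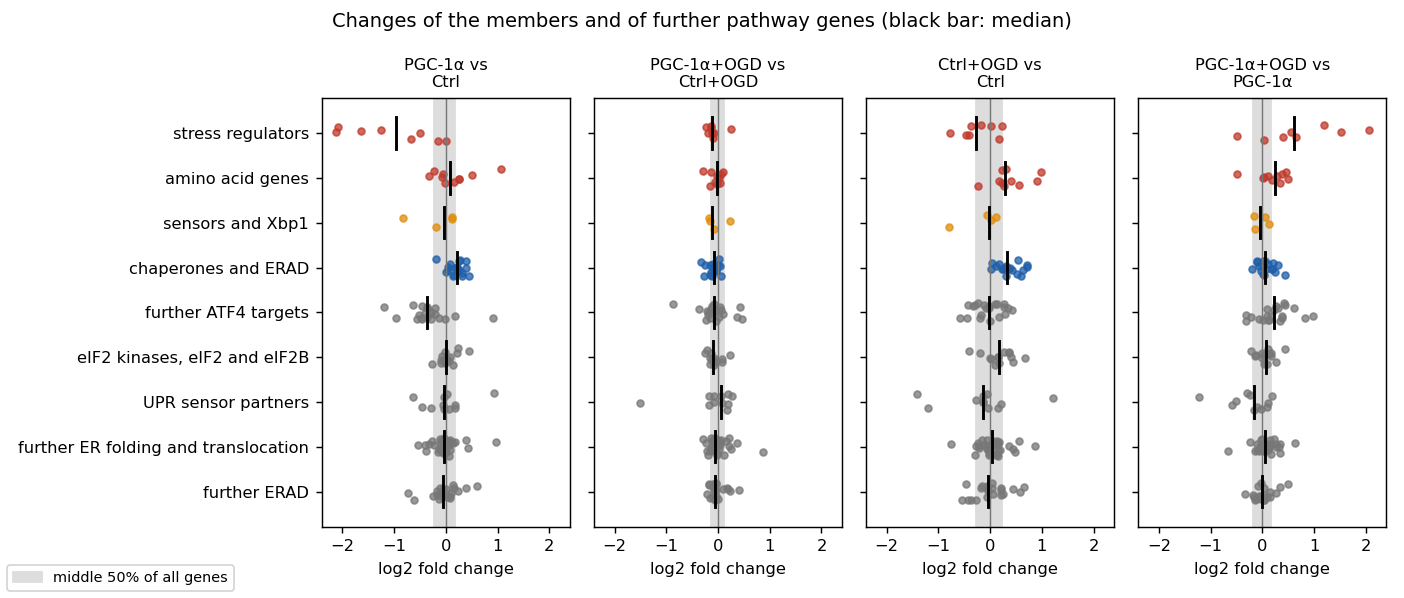
Log2 fold change of each gene in the 4 comparisons, by list, with the 4 groups of members on top and the 5 further lists in grey below. The black bar is the median, and the grey band holds the middle 50% of all genes compared. The stress regulators have medians of -0.96 in PGC-1α vs Ctrl and 0.61 in OGD vs no OGD in overexpressing cells, while the chaperone arm has its highest median, 0.33, in Ctrl+OGD vs Ctrl. Stress regulators and amino acid genes were split with earlier results of these data known.

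Of the 40 measured members, 18 had 1 transcript in the table and 22 had 2 or more. In 5 members the share of a single transcript in its gene differed by at least 25 percentage points between libraries (Syvn1, Asns, Hyou1, Dnajb11 and Pycr1). Asns is the clearest case among the abundant ones. Asns-201 was at 66.0 and 32.9 FPKM in control and overexpressing cells without OGD, and 29.8 and 79.2 FPKM with it, and Asns-202 at 12.3, 61.0, 62.5 and 15.6 FPKM in the same order. The transcripts were mirror images of each other, and their sum hardly moved.

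Dnajb11-203 was at 1.55 to 2.37 FPKM in 3 libraries and at 46.9 FPKM in PGC-1α+OGD, where Dnajb11-201 was at 89.3 FPKM against 143 FPKM in Ctrl+OGD. Syvn1-204 was at 7.99 to 10.6 FPKM in 3 libraries and at 0.0754 FPKM in PGC-1α+OGD, where Syvn1-207 was at 5.86 FPKM and in the other 3 was listed at 0. Hyou1-204 was at 67.4 FPKM in PGC-1α and at 36.4 to 38.9 FPKM elsewhere. The values of transcripts that share most of their length are estimates by the authors' program, and whether these shifts are real isoform changes was not tested.

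**Figure D5:**
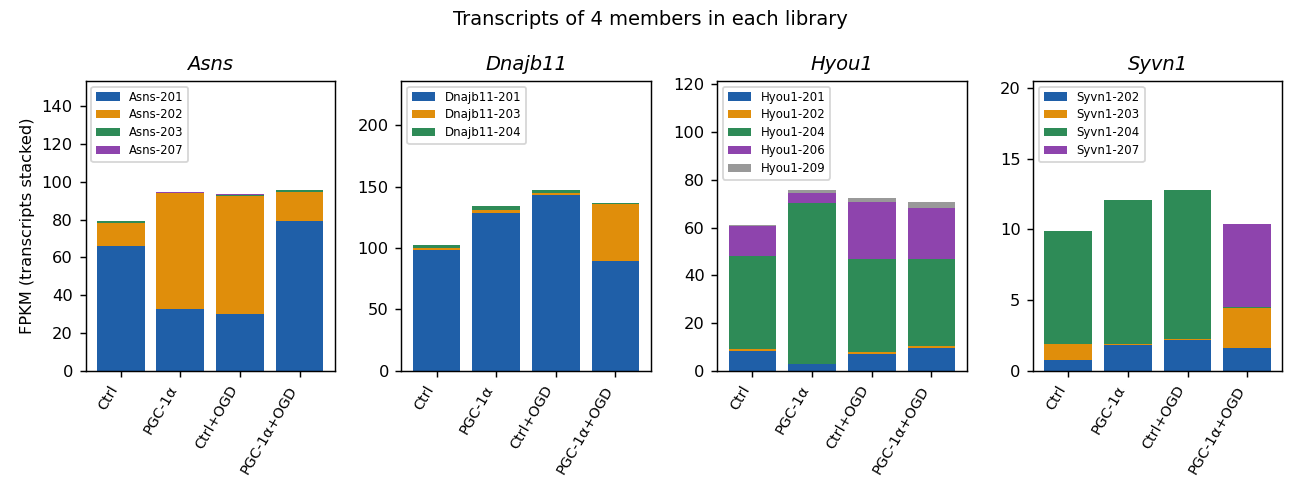
FPKM of each transcript of Asns, Dnajb11, Hyou1 and Syvn1, stacked, by library. The height of a bar is the gene's level, which stays within 1.5-fold for each of the 4 genes, while the colours that make it up change between libraries.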

How the data were processed

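Poly(A) RNA of HT-22 cells was sequenced from a stranded library kit, and reads were aligned by the authors to GRCm38 with HISAT2 2.1.0, as the submitters' processing notes state. The deposited table gives FPKM for 25889 Ensembl transcripts, each reaching at least 0.500 FPKM in 1 or more of the 4 libraries. The unit is not named and was inferred from values that are never negative with unequal column totals. The program behind the values and the strand setting are not given in the sources used here. No whole-read steps were found, so depth is unknown and no interval can be given.

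Identifiers without version were matched to GENCODE M21 (25822, 99.7%), transcripts of a symbol were summed, and log2(FPKM + 1) was compared without scaling for the 10604 genes averaging 1 FPKM or more. Genes were counted at 1.5-fold, the fold criterion in the study's methods. With 1 library per condition no test was made. The change of overexpressing vs control cells after OGD minus that of PGC-1α vs Ctrl equals the difference between the 2 OGD changes by arithmetic.

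The members and all lists, including the split of the ATF4 arm into stress regulators and amino acid genes, were chosen with earlier results of these data known. All 41 members are accounted for. All 4 values were given for factors, sensors, members past 1.5-fold and the 5 highest of each arm, and up to 3 genes each way were named from a further list. Motifs were searched in RefSeq promoter sequence (GRCm38.p6). The 10 alternatives are described with the limits, and of these the removal of a trend in transcript length and GC content was chosen after seeing the data. The gene sums, filter and fold changes were tested on simulated data with known answers and an assumed spread. This checked the arithmetic, not the calls of single members. The calculations were run in Python 3.11.15 with pandas 2.3.3, numpy 2.4.6 and, for plots, matplotlib 3.10.9.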

Additional observations from a re-analysis of the deposited data

Results flagged for a closer look

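In the 2 OGD comparisons, Ddit3 passed 1.5-fold in opposite directions, with a log2 change of -0.78 in Ctrl+OGD vs Ctrl and 1.20 in OGD vs no OGD in overexpressing cells. The difference between these changes, 1.98, was not tested, since each rests on 1 library a side. Ddit3 was highest in Ctrl at 393 FPKM and lowest in PGC-1α at 91.8 FPKM.

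Mbtps1, from the list of sensor partners, also passed 1.5-fold in opposite directions. Its log2 change was 0.92 in PGC-1α vs Ctrl and -1.51 in overexpressing vs control cells after OGD, and 1.21 in Ctrl+OGD vs Ctrl and -1.23 in OGD vs no OGD in overexpressing cells. These differences were not tested either. Both of its transcripts moved in the same direction in every comparison, with Mbtps1-201 at 2.34, 5.38, 7.32 and 2.07 FPKM and Mbtps1-202 at 6.53, 12.3, 14.5 and 4.93 FPKM, each time first the control and overexpressing cells without OGD and then those with it.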

How the results depend on the processing

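The 10 alternatives gave no reversed call among the 19 calls of single members, which all kept their direction. The pseudocounts, the filters and the stricter fold change cannot alter the sign of a change. Only the scalings, the highest transcript and the trend removal could have reversed a call. With the highest transcript standing for each gene, 3 members were higher in PGC-1α vs Ctrl and the median of the ATF4 arm there was -0.24. In the same setting 1 member was higher and 2 lower in overexpressing vs control cells after OGD, and 2 were lower in OGD vs no OGD in overexpressing cells. The members behind these counts were Asns, Psph, Hyou1, Dnajb11 and Syvn1, whose transcripts shift against each other. At a fold change of at least 2, 0 members were higher and 0 lower in Ctrl+OGD vs Ctrl, and 8 of the 19 calls remained. Hspa5 and Herpud1 in Ctrl+OGD vs Ctrl dropped below 1.5-fold at a pseudocount of 5 (0.58 and 0.57) and after equal totals (0.50 and 0.54), and so did Sesn2 in PGC-1α vs Ctrl at a pseudocount of 5 (-0.56), Hspa5 after upper quartile scaling (0.57) and Herpud1 by its highest transcript (0.52). Over all genes, 250 were higher and 230 lower in PGC-1α vs Ctrl at a pseudocount of 5, against 521 and 597. The median over all genes moved by at most 0.0818 under any scaling. No paired analysis was possible because each condition has 1 library, and no replicate could be left out. Depth is unknown, so changes of low genes such as Chac1 and Pycr1 have an unknown counting error.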
